A study of Mus musculus with 12 samples.

Results

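The chemokine receptor Ccr7 and the ligands listed as Ccl19 and Ccl21b were followed in the mouse oviduct after lipopolysaccharide (LPS), the outer-membrane endotoxin of Escherichia coli. These 3 genes, picked by name, are 3 of the 185 endogenous mRNAs counted in each sample, and all 3 were detected in enough lanes to be tested. Counting was done on the nCounter platform, where a barcoded probe pair binds each mRNA and single barcodes are counted without amplification. Every animal was a female CD1 mouse (an outbred stock) of 6 to 8 weeks, injected intraperitoneally on the day of estrus. The LPS, of serotype 055:B5, was given at 0 µg (control), 2 µg (called the low dose here) or 10 µg (the high dose). It was dissolved in 100 µL of phosphate-buffered saline, and oviducts were taken 24 h later. Each group held 4 mice, with 1 lane per mouse.

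CCR7 steers cells into and through lymphoid tissue. It is carried by naive and central memory T cells, B cells and matured dendritic cells, and it responds to CCL19 and CCL21. CCL21 is made constitutively by lymphatic endothelium and by stromal cells of the T cell zone, and its long basic tail holds it on cell surfaces and matrix, whereas CCL19 lacks that tail and also comes from matured dendritic cells. In whole oviducts, more cells of a type and more RNA per cell cannot be told apart. The panel held 0 of the 5 oviduct epithelium markers listed and 0 of the 4 B cell markers, so the labelled tissue was not checked against its own markers.

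The Ccl21 probe needs care, since the mouse carries several near-identical Ccl21 genes. The deposited table calls it Ccl21b, but its target accession belongs to Ccl21a in RefSeq (GRCm38.p6), a symbol for the form expressed in lymphoid tissue. RefSeq lists 6 protein-coding genes with Ccl21 synonyms on chromosome 4, and 2 with Ccl19 synonyms beside 3 Ccl19 pseudogenes. Which copies each probe binds was not tested. The name Ccl21b is kept below for the probe as deposited. The accessions of Ccl19 (chromosome 4) and Ccr7 (chromosome 11) carry the same symbols in RefSeq.

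The 250 bases before the annotated start of both ligand genes are shown because one ligand gene passed the test at the high dose and the other did not. The changes of the 2 ligands were not shown to differ when compared directly (see the ratio below). Both windows were read from the RefSeq promoter table (GRCm38.p6), 5′ to 3′ on the minus strand of chromosome 4. Capitals mark a match to the core of interferon-stimulated response elements, written here as GAAA, any 2 bases, GAAA, which was searched on both strands together with the NF-kB consensus.
Ccl19, chr4:42756366-42756615: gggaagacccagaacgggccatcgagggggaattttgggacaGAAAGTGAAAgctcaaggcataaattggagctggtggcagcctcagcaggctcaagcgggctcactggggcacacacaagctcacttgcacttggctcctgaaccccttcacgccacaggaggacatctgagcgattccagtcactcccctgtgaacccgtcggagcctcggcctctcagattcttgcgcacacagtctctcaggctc
Ccl21a, chr4:42773992-42774241: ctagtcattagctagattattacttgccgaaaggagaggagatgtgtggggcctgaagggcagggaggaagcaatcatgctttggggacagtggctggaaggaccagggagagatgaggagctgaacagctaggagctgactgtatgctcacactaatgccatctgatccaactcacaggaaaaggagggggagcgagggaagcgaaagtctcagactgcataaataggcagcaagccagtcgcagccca

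The Ccl19 window held 1 match to that core, at -208 to -199 from the start on the gene's own strand, and the Ccl21a window held none. Of 32851 windows of this length in the table, 2.98% held it. Neither window matched the NF-kB consensus, which 3.9% of the windows held. These letters describe the windows and were not tied to binding or to the counts. The 300-base promoter entries of Ccl21a and its copy Ccl21d differed at 2 of 299 aligned bases.

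Lanes gave 98258 to 196878 endogenous counts, and 62.3% to 90.2% of fields of view were counted. Counts were divided by a lane scale from 6 reference genes, giving scaled counts. Background was judged per lane from its 8 negative control probes, whose mean plus 2 SD gave limits of 3.16 to 6.78 raw counts. Of 179 inflammation genes, the 165 above that limit in at least 4 lanes were tested with edgeR's quasi-likelihood test, with Benjamini-Hochberg adjustment over the 165 and a threshold of 0.05. At the high dose 22.4% of them (37) were higher than in controls and 0 were lower, with 53 (32.1%) higher and 0 lower at an unadjusted p below 0.05. At the low dose 2.42% (4) were higher, and between the doses 6.67% (11) were higher at the high dose. The labels describe separate mice, and the spread between mice is what the p-values measure.

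Ccl19, the soluble CCR7 ligand, rose at the high dose by 2.63-fold. Its scaled counts in control mice 1 to 4 were 51.5, 50.5, 59.3 and 69.8. Low-dose mice had 85.1, 126.0, 53.4 and 65.4, and high-dose mice 86.2, 160.4, 153.4 and 208.7. The high-dose and control mice did not overlap, high-dose mouse 1 being the nearest to the controls, while the low-dose mice overlapped both other groups.

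Mean Ccl19 was 57.8 ± 8.96 scaled counts (SD, n = 4) without LPS, 82.5 ± 31.8 after 2 µg and 152.2 ± 50.4 after 10 µg. High dose against control gave a log2 fold change of 1.40 ± 0.31 (SE; edgeR adjusted p = 0.00546), with a 95% interval of 0.72 to 2.07. This was the 27th highest of the 165 log2 fold changes, and the non-overlap of the groups was shared by 25.5% of the genes. An exact permutation test of Ccl19 alone gave p = 0.0286 (two-sided), the smallest that 4 mice against 4 allow. By the series' own kind of test (one-way analysis of variance on scaled counts, adjusted over the 165 genes) Ccl19 did not pass, at an adjusted p of 0.0610.

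Low-dose Ccl19 stood between the other groups, and neither step passed. Only 3.64% of the genes had every low-dose mouse above every control, and Ccl19 was not among them. Low dose minus control was 0.51 ± 0.30 (log2, SE; edgeR adjusted p = 0.497; 95% interval -0.16 to 1.18). High minus low dose was 0.88 ± 0.30 (edgeR adjusted p = 0.103; 95% interval 0.22 to 1.55). The second difference passed without low-dose mouse 2 (1.16, edgeR adjusted p = 0.0325) or without high-dose mouse 1 (1.08, edgeR adjusted p = 0.0403). Low-dose mouse 2, at 126.0, was the only low-dose mouse above high-dose mouse 1.

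The Ccl21b probe, for the ligand that stays bound to matrix, did not pass in any comparison. Its scaled counts in control mice 1 to 4 were 2364, 2079, 4038 and 1761. Low-dose mice gave 2577, 2504, 1386 and 3230.0, and high-dose mice 2182, 2905, 4106 and 3696. All 3 groups overlapped, and control mouse 3 was almost as high as the highest high-dose mouse.

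Mean Ccl21b was 2560.3 ± 1016 scaled counts (SD, n = 4) without LPS, 2424 ± 765.3 after 2 µg and 3223 ± 853.9 after 10 µg. High dose minus control was 0.33 ± 0.31 (log2, SE; edgeR adjusted p = 0.504), with a 95% interval of -0.35 to 1.01, that is 0.786-fold to 2.01-fold. Low dose minus control was -0.08 ± 0.31 (edgeR adjusted p = 0.926; 95% interval -0.76 to 0.60). High minus low dose was 0.41 ± 0.31 (edgeR adjusted p = 0.466; 95% interval -0.27 to 1.09). With 1 mouse left out the high-dose difference ran from 0.19 (without control mouse 4) to 0.64 (without control mouse 3), and without control mice 2 and 4 it was 0.0099, none past the threshold.

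Mice of one group differed more in Ccl21b than in most well-counted genes. Among the 92 genes whose controls averaged 100 scaled counts or more, its coefficient of variation in controls, 39.7%, ranked 9th from the top, beside a median of 16.4%. It was 31.6% after 2 µg (15th, median 13.7%) and 26.5% after 10 µg (12th, median 10.0%). Ccl19 varied by 15.5% among controls, below the median of 21.3% over the 165 genes, and by 38.6% and 33.1% at the low and high dose, above medians of 19.7% and 16.3%.

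Ccr7, the receptor, went from background in every control to counts above it in every high-dose mouse. Its raw counts in control mice 1 to 4 were 2, 1, 5 and 3, against negative control limits of 5.33 to 6.78. Low-dose mice had 10, 18, 2 and 12, and high-dose mice 8, 13, 17 and 7. None of 4 control lanes, 3 of 4 low-dose lanes and 4 of 4 high-dose lanes exceeded their limit, and low-dose mouse 3 was the exception.

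Mean Ccr7 was 2.77 ± 1.72 scaled counts (SD, n = 4) without LPS, 9.57 ± 5.99 after 2 µg and 11.9 ± 3.46 after 10 µg. Ccr7 passed the filter on low counts only through the LPS lanes. The high-dose mean was 1.94 times the mean scaled limit of the control lanes, 6.14, and the low-dose mean 1.56 times. These ratios of means carry no spread between mice. The fitted log2 fold change at the high dose was 2.06 ± 0.60 (SE; edgeR adjusted p = 0.0261; 95% interval 0.74 to 3.39), the 14th highest of 165, and it rests on control counts within background. The call was lost without control mice 2 and 4, the lanes with the fewest fields of view (1.83, edgeR adjusted p = 0.126), and by the series' own kind of test (adjusted p = 0.125). Each of 5 mice ended it when left out alone, namely controls 1, 2 and 4 and the second and the third high-dose mouse (edgeR adjusted p from 0.0609 to 0.0868). With the replicate number as a block it was 2.03 ± 0.67 and did not pass (edgeR adjusted p = 0.0638).

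After 2 µg Ccr7 had a fitted log2 fold change of 1.72 ± 0.61 (SE) and did not pass (edgeR adjusted p = 0.193; 95% interval 0.38 to 3.05). It passed when low-dose mouse 3 was left out, at 2.08 ± 0.41 (edgeR adjusted p = 0.0108). High minus low dose was 0.35 ± 0.50 (edgeR adjusted p = 0.744; 95% interval -0.76 to 1.45), and -0.021 without low-dose mouse 3. Low-dose mouse 3 had the lowest scaled count of its group in 80 of the 165 genes (48.5%), Ccl19, Ccl21b and Ccr7 among them. Low-dose mouse 2 had the highest Ccl19 and the highest Ccr7 of its group but not the highest Ccl21b.

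**Figure D1:**
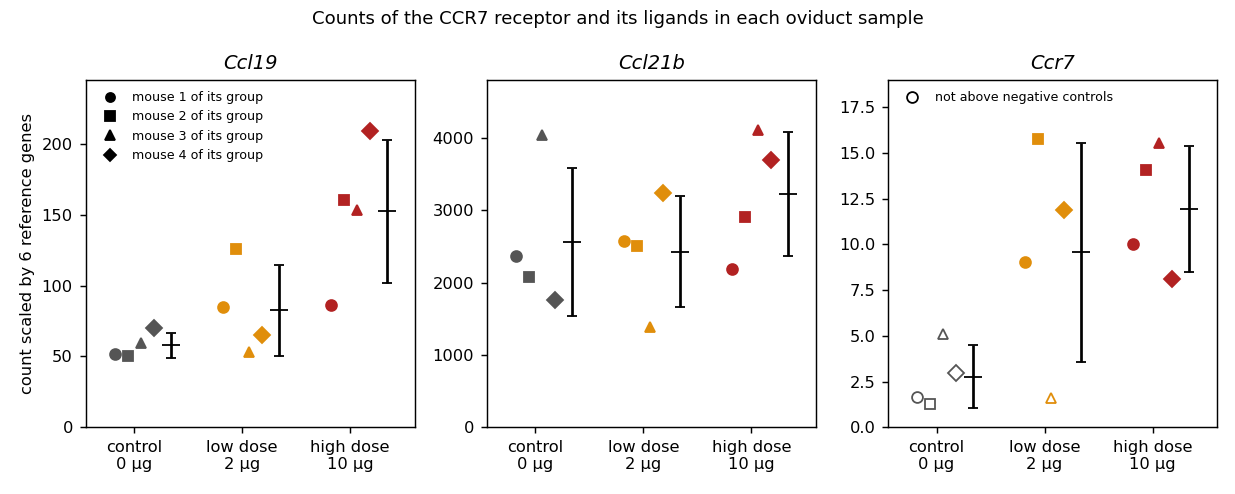
Scaled counts (y axis, each panel from 0) of Ccl19, Ccl21b and Ccr7 in every mouse by LPS dose (x axis), with the group mean and SD (n = 4) as a dash and bar to the right. Ccl19 and Ccr7 of all 4 high-dose mice lie above all 4 controls, Ccl21b overlaps, and the 5 open symbols of Ccr7 are lanes not above the negative controls.

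The ratio of both ligands within a mouse does not depend on the lane scale. Control mice 1 to 4 had 21.8, 24.3, 14.7 and 39.7 Ccl19 counts per 1000 Ccl21b counts. Low-dose mice had 33.0, 50.3, 38.5 and 20.2, and high-dose mice 39.5, 55.2, 37.4 and 56.5. Control mouse 4 overlapped the high-dose mice, and the other 3 controls lay below all of them. The probes' binding efficiencies are unknown, so the ratio is compared between mice and not read as relative abundance.

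The mean ratio was 25.1 ± 10.5 per 1000 (SD, n = 4) without LPS, 35.5 ± 12.5 after 2 µg and 47.1 ± 10.1 after 10 µg. High dose minus control was 0.98 on the log2 scale (exact permutation p = 0.0857, two-sided, 0.257 adjusted over the 3 comparisons). Low dose minus control was 0.52 (exact permutation p = 0.286, adjusted 0.286) and high minus low dose 0.46 (exact permutation p = 0.171, adjusted 0.257). Thus the change of Ccl19 at the high dose was not shown to differ from that of Ccl21b by this test. The smallest exact permutation p for 4 mice against 4 is 0.0286. After adjustment over the 3 comparisons, 1 of them could pass only if another also reached that smallest p. Not passing is therefore no sign that the ligands changed alike.

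**Figure D2:**
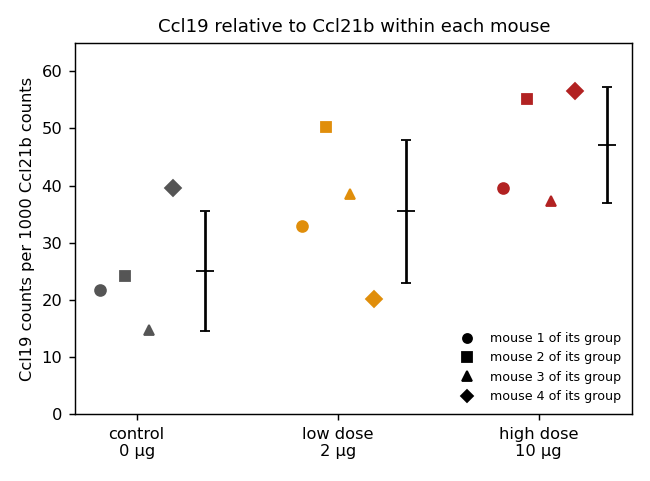
Ccl19 counts per 1000 Ccl21b counts (y axis) in each mouse by LPS dose (x axis), with group mean and SD (n = 4). The high-dose mice lie between 37.4 and 56.5 and overlap control mouse 4 at 39.7.

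Mean Ccl19 and mean Ccr7 were lowest in controls and highest at the high dose, and by edgeR neither differed between neighbouring groups. For Ccr7 the order of the LPS doses is not settled, since high minus low dose turned to -0.021 without low-dose mouse 3 and to -0.073 by total count. For Ccl21b the low dose was lowest and no neighbours differed beyond their spread. Both dose comparisons against control share the same 4 control mice. In the plot of all genes ranked by log2 fold change, Ccr7 and Ccl19 sit among the rises and Ccl21b, 70th of 165, sits near the middle.

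**Figure D3:**
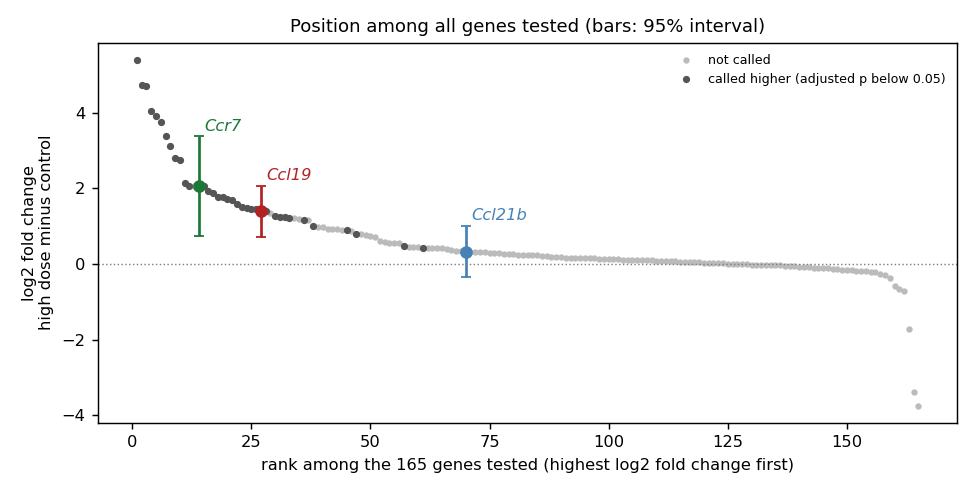
Log2 fold changes of high dose minus control (y axis) for the 165 genes tested, ranked from highest to lowest (x axis), with dark points for genes past the adjusted threshold and 95% intervals for the 3 genes. Ccr7 is 14th, Ccl19 27th and Ccl21b 70th, with an interval that spans 0.

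Other lane scalings shifted all genes together. At the high dose the 165 genes had a median log2 fold change of 0.24 with the 6 reference genes, -0.01 by TMM and -0.34 by total count. Relative to that median Ccl19 stood 1.16 higher with the reference genes and 1.13 higher by total count. Ccr7 stood 1.82 and 1.83 higher, and Ccl21b 0.09 and 0.07 higher. Ccl19 and Ccr7 passed under all 5 other scalings, and Ccl21b passed under none and lay at -0.27 by total count.

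**Figure D4:**
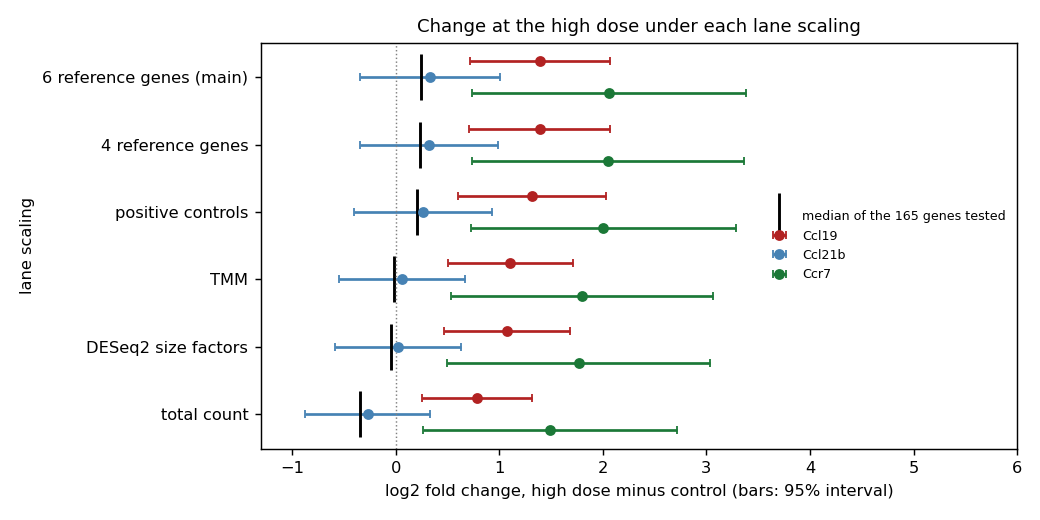
Log2 fold change with 95% interval (x axis) of Ccl19, Ccl21b and Ccr7 for high dose minus control under 6 lane scalings (y axis), with a vertical tick at the median of the 165 genes. Intervals of Ccl19 and Ccr7 stay above 0 throughout, and that of Ccl21b holds 0 and moves with the tick.

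The genes with profiles most like each of the 3 were found by the root mean square difference of log2(scaled count + 1) over the 12 mice, with the control mean set to 0. For Ccl19 these were Cd40, a costimulatory receptor of antigen-presenting cells (0.32), Tlr2, a receptor for bacterial lipoproteins (0.32), and C2, a complement protease (0.32). All 3 rose at the high dose, by 1.45 ± 0.27, 1.48 ± 0.29 and 1.18 ± 0.29 (log2, SE). Their choice by likeness to Ccl19 in these same mice favoured such a rise. For Ccr7 they were C1qa (0.46), C1qb (0.54) and C3ar1 (0.59). C1qa and C1qb encode chains of C1q, which macrophages make, and C3ar1 encodes the C3a receptor.

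C1qa was picked for its likeness to Ccr7 over these same 12 mice, so a shared exception is no separate support. Low-dose mouse 3 was also lowest of its group in 48.5% of the 165 genes. The scaled counts of C1qa at the low dose were 1432, 1893, 414.4 and 1075, with mouse 3 near the controls (390.6 to 651.6). Those of the high dose lay between 1410 and 1728. For Ccl21b the nearest genes were Tgfb1 (0.33), an immunoregulatory cytokine, and Ripk1 and Daxx (0.38 each), both linked to death receptor signalling. Tgfb1 passed at the high dose (0.48 ± 0.14, log2, SE; edgeR adjusted p = 0.0258), though it did not in 12 of 26 alternatives and lay at -0.11 by total count, and Ripk1 and Daxx did not pass. Ccl21b ranked 55th of the 164 other genes by likeness to Ccl19, and Ccr7 77th.

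Lymphotoxins and LIGHT (Tnfsf14) signal through the lymphotoxin beta receptor, which in lymphoid stroma induces Ccl19 and Ccl21. Of the 4 lymphotoxin and TNF ligands 2 rose at the high dose, beside 22.4% of the 165 genes, and the median log2 fold change was 1.13 beside 0.24 over all. Ltb went from 64.2 ± 9.79 in controls to 129.8 ± 32.5 (SD, n = 4), 1.02 ± 0.27 on the log2 scale (SE; edgeR adjusted p = 0.0177). That call was lost in 5 of 26 alternatives, with an adjusted p of up to 0.108: by total count, by the series' own kind of test, and without control mouse 1, high-dose mouse 3 or control mice 2 and 4. Tnfsf14 went from 6.42 ± 1.67 to 15.2 ± 3.24, 1.25 ± 0.26 on the log2 scale (edgeR adjusted p = 0.00438). Tnfsf14 exceeded the negative controls in 2 of 4 control lanes, and Tnf in 1 of 4. Tnf (2.06 ± 0.72, log2, SE; edgeR adjusted p = 0.0611) did not pass, but it did in 8 of 25 alternatives. Lta (0.01 ± 0.34; edgeR adjusted p = 0.984) did not pass. None of the 4 passed after 2 µg (0 of 4), beside 2.42% of all genes.

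Dendritic cells gain CCR7 as they mature. Of the 11 genes listed for dendritic cell maturation and antigen presentation, 8 were on the panel and 7 were tested, of which 2 rose at the high dose (median 0.76), a share near the 22.4% of all genes. These were Cd40, from 21.3 ± 0.957 to 58.6 ± 5.02 (SD, n = 4), and Il15, a cytokine that supports T and NK cells, by 0.81 ± 0.16 (log2, SE). Il12b, a subunit of interleukin 12, stood at 0.91 ± 0.47 and the dendritic cell chemokine Ccl22 at -0.20 ± 0.21, neither past the threshold. The MHC class II gene H2-Ea stood at -3.40 ± 1.74 and did not pass. Control mouse 2 had 1334 scaled counts of it against 5.11 to 43.9 in the other controls, and without that mouse the difference was 0.21. Low-dose mouse 2 was likewise high, with 1074 scaled counts of H2-Ea against 23.8 to 48.0 in the other low-dose mice. The 8 genes summed to 771.0 to 2796 scaled counts without LPS, 145.8 to 1853 after 2 µg and 275.0 to 4226 after 10 µg, so the groups overlapped. The pair of H2-E genes held 40.4% to 96.7% of these sums. Without that pair the sums were 84.8 to 94.5 in controls, 86.9 to 131.3 after 2 µg and 135.0 to 186.5 after 10 µg. These smaller sums, which include Cd40 and Il15, were higher in every high-dose mouse than in every control. Cd40 and Il15 were higher in every high-dose mouse than in every control, as were 25.5% of the 165 genes. After the low dose 0 of the 7 passed, beside 2.42% of all genes.

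T cells are the other main bearers of CCR7. Of 11 T and NK cell markers 9 were on the panel and 7 tested, and 2 rose at the high dose (median 0.98), again a share near 22.4%: Il18rap, a subunit of the interleukin 18 receptor, by 1.58 ± 0.28, and Il23r by 1.47 ± 0.30 (log2, SE). Cd4, the helper T cell coreceptor, stood at 0.41 ± 0.41 and Lta at 0.01 ± 0.34. Cd40lg, the ligand of Cd40, stood at 1.20 ± 0.56, and none of these passed. Cd40lg exceeded the negative controls in 1 of 4 high-dose lanes and 4 of 4 low-dose lanes. The 9 genes summed to 57.4 to 99.7 scaled counts without LPS, 94.8 to 146.1 after 2 µg and 116.2 to 139.9 after 10 µg. Cd40lg, Ccr4, Fasl, Ifng and Il2 exceeded the negative controls in 0 of 4 control lanes, Il18rap in 2 of 4 and Il23r in 3 of 4. Low-dose mice gave 0 calls of 7, beside 2.42% of all genes.

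Of 7 macrophage and monocyte markers 4 were on the panel, and 3 rose at the high dose (median 1.31), beside 22.4% of all genes: C1qa by 1.50 ± 0.36, C1qb by 1.39 ± 0.31 and C3ar1 by 1.23 ± 0.29 (log2, SE), while Ccr2 stood at 0.17 ± 0.42. These 3 are also the genes named above for their likeness to Ccr7. Of the 4, 0 passed after 2 µg or between the doses, beside 2.42% and 6.67% of all genes. Together these genes gave 1469.5 to 2077 scaled counts without LPS, 1357 to 5114 after 2 µg and 4034 to 5058 after 10 µg. Of the 5 neutrophil markers 3 were on the panel and 2 rose at the high dose, beside 22.4% of all genes. These were Il8rb (the receptor Cxcr2) and Itgb2 (1.23 ± 0.31), and Il8ra (1.21 ± 0.45) did not pass. Il8rb went from 4.45 ± 1.28, not above the negative controls in any control lane, to 46.8 ± 11.99 (SD, n = 4), 7.62 times the mean control limit. It was also the 1 neutrophil marker of 3 that rose after 2 µg (edgeR adjusted p = 0.00565), beside 2.42% of all genes. Its low-dose mean was 3.57 times that limit. Sums of the neutrophil markers were 77.6 to 124.7 without LPS, 125.1 to 281.8 after 2 µg and 196.2 to 356.7 after 10 µg. Most of them was Itgb2, with means of 99.8, 179.4 and 234.3 in these groups. Other leukocytes also carry Itgb2, so these sums do not single out neutrophils. The part of these cell types in the Ccl19 and Ccr7 results was not tested.

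Of 9 stroma, muscle and vessel genes, which include markers of the cells that make Ccl21, the panel held 2. At either dose 0 of these passed, beside 22.4% of all genes at the high dose and 2.42% at the low dose. These were Myl2, a muscle myosin light chain (0.46 ± 0.32), and Pdgfa, a growth factor for stromal cells (0.16 ± 0.13, log2, SE). Their sums were 622.6 to 833.6 scaled counts without LPS, 648.4 to 912.3 after 2 µg and 735.0 to 882.5 after 10 µg. Nearly all of these sums was Pdgfa, with a control mean of 729.8 beside 5.82 for Myl2. Myl2 exceeded the negative controls in 1 of 4 control lanes. The lymphatic and T zone stroma markers Lyve1 and Pdpn were not counted, so these sums do not follow the cells that make Ccl21.

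Among chemokine genes, Ccl19 rose less than many of the other ligands. Of the 16 other chemokine ligands tested 11 rose at the high dose, beside 22.4% of all genes (median log2 fold change 2.40), led by Cxcl9 (5.40 ± 0.94), which attracts activated T cells, Ccl5 (4.73 ± 0.91) and Ccl7 (4.05 ± 0.56). In controls, Cxcl9 and Ccl7 exceeded the negative controls in 2 of 4 lanes each and Ccl5 in 4 of 4. The fold changes of Cxcl9 and Ccl7 thus rest partly on counts near background. Ccl22 and the eosinophil chemokine Ccl24 (-1.71 ± 0.83, log2, SE) were lowest and did not pass. Ccl21b, at 0.33, lay with the 5 ligands that did not pass. Of the 7 other chemokine receptors 1 rose, Il8rb, a share below the 22.4% of all genes, and the list median was 0.55. Ccr1, a receptor of inflammatory chemokines, stood at 0.93 ± 0.35, Ccr2 at 0.17 and the eosinophil receptor Ccr3 at 0.15 ± 0.66, none past the threshold. After the low dose 2 of the 16 ligands and 1 of the 7 receptors rose, beside 2.42% of all genes.

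**Figure D5:**
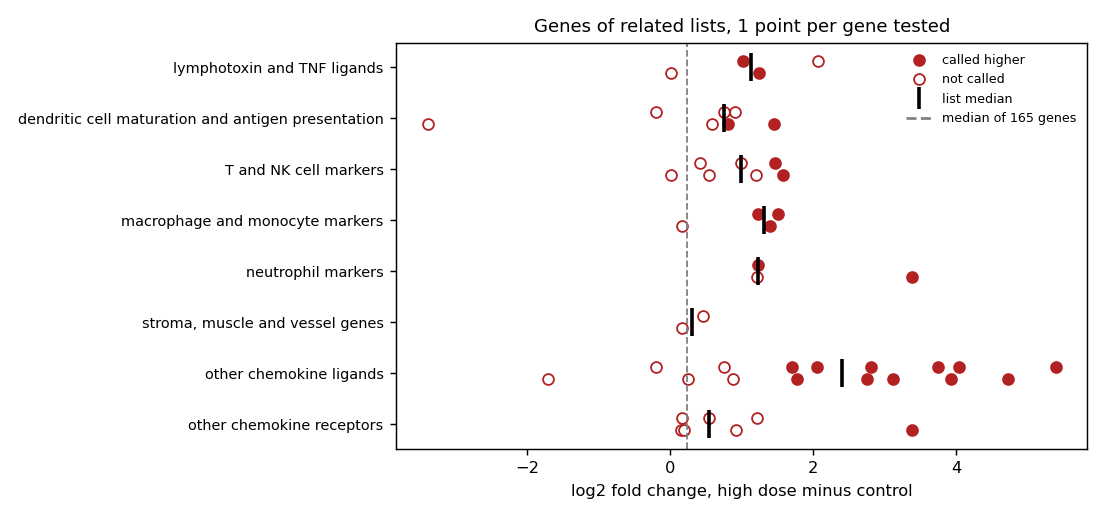
Log2 fold changes of high dose minus control (x axis) for the tested genes of 8 lists (y axis), with filled points for genes past the adjusted threshold, black ticks for list medians and a dashed line at the median of all 165 genes, 0.24. The other chemokine ligands reach 5.40, and their median of 2.40 lies above the 1.40 of Ccl19.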

How the data were processed

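Counts of mRNA in 12 oviduct samples were measured with the nCounter GX Mouse Inflammation Kit. The authors deposited the unnormalized counts of every probe in 1 table with a column for each mouse, per the file headers. These deposited values were handled under the rules for estimated counts, since each column has a non-whole binding density entry, but every probe value was whole. What the instrument software did is not given in the sources used here. Groups came from sample titles, matched to the sample names in the table. RNA integrity numbers were above 9.7 per the labels' protocols.

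The counts of the 165 tested genes were fitted over all 12 lanes with edgeR 4.0.16 (R 4.3.3), group as the only term, with the reference scale (Cltc, Gapdh, Gusb, Hprt1, Pgk1 and Tubb5) as offset. SE and 95% intervals come from the F statistic and its degrees of freedom. The procedure was tested on simulated data. Exact permutation tests used SciPy 1.17.1. Alternatives were other scalings, DESeq2 1.42.0, limma 3.58.1 (voom), the series' own kind of test, 2 other filters, background subtraction, only 2 groups, mice left out and a replicate block. Whether equal replicate numbers in the titles pair the mice was examined by correlations of deviations from group means. For high dose and control all 4 pairs of equal number were over 0.1 (0.114 to 0.388). The other comparisons had 3 of 4 and 2 of 4 over 0.1. Control mouse 3 correlated more with high-dose mouse 4 (0.429) than with high-dose mouse 3 (0.114), so pairing is not settled. The main fit had no block, and the block is given as an alternative. Mice of one group were distinct, with a chi-square of at least 16.1 per degree of freedom in each of 18 pairs. Intervals and limits cover what the lanes counted, and genes with few counts are least precise. RefSeq matched 179 of 185 accessions, and 8 symbols differed.

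Named are the 3 genes, the 3 genes most like each, and of each of 10 lists the 3 highest and 2 lowest tested members at the high dose. Csf1r and other markers absent from the panel were not counted. Lists, members and tests were chosen with earlier results of these data known.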

Additional observations from a re-analysis of the deposited data

Results flagged for a closer look

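Of 15 groups of 4 values examined (Ccl19, Ccl21b, Ccr7, the log2 ratio of Ccl19 to Ccl21b and the endogenous total in each group), 1 held a mouse far from its group, and about 1 in 20 groups would do so by chance. The endogenous total of control mouse 2 was 98258 counts, against 121424 to 126058 in the other controls. In that lane Ccl19 had 39 raw counts and Ccr7 1, the lowest of the controls for both, and Ccl21b had 1606. After scaling, Ccl19 stood at 50.5, next to control mouse 1 at 51.5. Without control mouse 2 the high-dose difference of Ccl19 was 1.34 (log2, edgeR adjusted p = 0.0171), and that of Ccr7 was 1.88 (edgeR adjusted p = 0.0609). None of the values of Ccl19, Ccl21b or Ccr7 themselves stood apart by this measure.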

How the results depend on the processing

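At the high dose Ccl19 kept its direction and its call in 26 of 27 alternatives, with log2 fold changes from 0.79 (total count) to 1.59, and from 1.21 to 1.59 with 1 mouse left out. By the series' own kind of test it was 1.40 and not past the threshold. Its high minus low difference ran from 0.69 to 1.16 with 1 mouse left out. Ccr7 at the high dose kept its direction in all 26 alternatives that tested it and lost its call in 8: by the series' own kind of test (2.11), without control mice 2 and 4 (1.83), with the replicate block (2.03, edgeR adjusted p = 0.0638) and when any of 5 single mice was left out, a series that ran from 1.86 to 2.50. It was not tested with the filter on all 12 lanes. Background subtraction gave 3.37, still past the threshold. Its low-dose difference ran from 1.35 to 2.16 with 1 mouse left out. High minus low dose changed sign for Ccr7 by total count (-0.073) and ran from -0.021 to 0.71 with 1 mouse left out. Ccl21b passed in no alternative, with 0.19 to 0.64 at the high dose with 1 mouse left out; it changed sign at the high dose by total count (-0.27), between the doses by total count (-0.046), and at the low dose by positive controls (0.011), with -0.25 to 0.23 with 1 mouse left out. By total count Daxx (-0.43), Pdgfa (-0.42) and Ripk1 (-0.43) were called lower and Tgfb1 lay at -0.11. Of the 33 other named genes, 9 changed sign in alternatives where they were not called, 38 times in all. The log2 ratio of Ccl19 to Ccl21b stayed unpassed and positive throughout, from 0.75 to 1.23 for high dose minus control with 1 mouse left out, where 3 mice against 4 cannot go below p = 0.0571 in an exact permutation test. The smallest exact permutation p was 0.133 without control mice 2 and 4 and 0.125 with the replicate block. None of these alternatives of the ratio could therefore have passed. The cause of these changes was not tested. Of all 165 genes, 37 passed at the high dose, but 57 by TMM, 59 by DESeq2 size factors, 67 by DESeq2 and 92 by total count, of which 23, 25, 32 and 62 were lower. At the low dose 4 passed, 9 by DESeq2, 2 by limma-voom, 1 with only the 2 groups, 0 without control mice 2 and 4, and 1 to 14 with 1 mouse left out. Between the doses 11 passed, all higher, but 45 by total count (36 lower), 20 by DESeq2 (6 lower), 24 by the series' own kind of test, 7 by positive controls, with background subtracted or without control mice 2 and 4, and 6 to 14 with 1 mouse left out. Deviations of same-numbered mice correlated from -0.155 to 0.593, with 3 of 12 pairs at or below 0.1 and a mean of -0.0663 over the other pairs of mice. The replicate block gave 34 calls at the high dose and, of the genes named, ended those of Ccr7 and Tgfb1 (0.48) there. Ccr7 counts lie near background, which limits its precision.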
